A study of Mus musculus with 6 samples.

Results

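The collagen genes were followed in fluorescent cells sorted from the hindbrains of mouse embryos at E10.5. They were taken as every gene whose only symbol in the platform's probe table has the form of a collagen chain, a number for the collagen type and a number for the chain. Of 18193 genes measured, 42 were collagen genes, with 82 probe sets in all. Each gene is given by 1 probe set, chosen for the highest mean of all 6 arrays without use of genotype. In the swap group (n = 3 arrays) the Hoxb1 locus made a paralogous Hox protein followed by IRES-tauGFP, and in the control group (n = 3 arrays) the same locus made the normal Hox-B1 protein followed by the same IRES-tauGFP. tauGFP is a green fluorescent protein joined to the microtubule-binding protein tau, so in both genotypes the sort took the cells in which the Hoxb1 locus was active, from hindbrains pooled by litter. The labels give neither the mouse strain nor how many copies of the locus were changed. They call the tissue rhombomere 4, the hindbrain segment that gives rise to facial branchiomotor neurons. The comparison asks whether transcripts differ when another Hox protein is made in place of Hox-B1.

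Collagens are secreted or membrane-bound proteins built from chains that wind into a triple helix. Fibrillar collagens make the cables of connective tissue and are known chiefly as products of mesenchyme, bone and cartilage. Type IV collagens form the sheet of the basement membrane, which surrounds the neural tube and its vessels, and fibril-associated collagens sit on the surface of fibrils. Other families form beaded filaments, short-chain networks or proteins that cross the cell membrane. In an embryonic hindbrain most fibrillar collagen is made outside the neural tube, in the head mesenchyme, while neuroepithelium, vessels and neurons are known sources of several non-fibrillar chains.

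The arrays were scaled alike, with medians of 118 to 139 intensity units, and any 2 of them correlated at r of 0.885 to 0.907 over all probe sets. All 9 branchiomotor markers measured lay at or above the median level, from Tbx2, near it at 7.06 to 7.65, to Isl1 and Ebf1. Isl1, a motor neuron transcription factor, lay between 13.74 and 14.03 in the swap arrays and between 13.63 and 13.77 in the control arrays on the log2 intensity scale. Hoxb1 read 12.54, 12.06 and 11.78 in swap arrays 1, 2 and 3, against 12.67, 12.68 and 12.55 in control arrays 1, 2 and 3. Where in the transcript its probe set lies is not known here, so it does not check the labels. The excess of 3′ over 5′ signal of the Actb control probe sets was 2.92 (log2) in swap array 1, 2.67 in control array 1 and 2.41 to 2.57 in the other arrays. For the Gapdh control probe sets it was 1.93 in swap array 1 and 1.23 to 1.41 in the other arrays.

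Collagen genes at or above the median level came chiefly from the fibrillar, type IV and fibril-associated families, and no collagen gene passed the test between the genotypes. The table carries no detection calls, so levels are set against the median over all probe sets, a log2 intensity of 6.83. Of the 42 genes 23 had a mean at or above it and 19 below it, and of all genes 61.4% lay at or above it. By family, these were 10 of 11 fibrillar genes, 4 of 6 type IV genes, 5 of 9 fibril-associated genes, 2 of 4 transmembrane genes, 1 of 2 multiplexins, 1 of 2 of the remaining types, 0 of 5 beaded-filament genes and 0 of 3 short-chain genes. Each probe set binds with its own strength, so the order of the genes on this scale is not an order of abundance. Col6a6 and Col28a1 had no probe set named for them here.

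**Figure D1:**
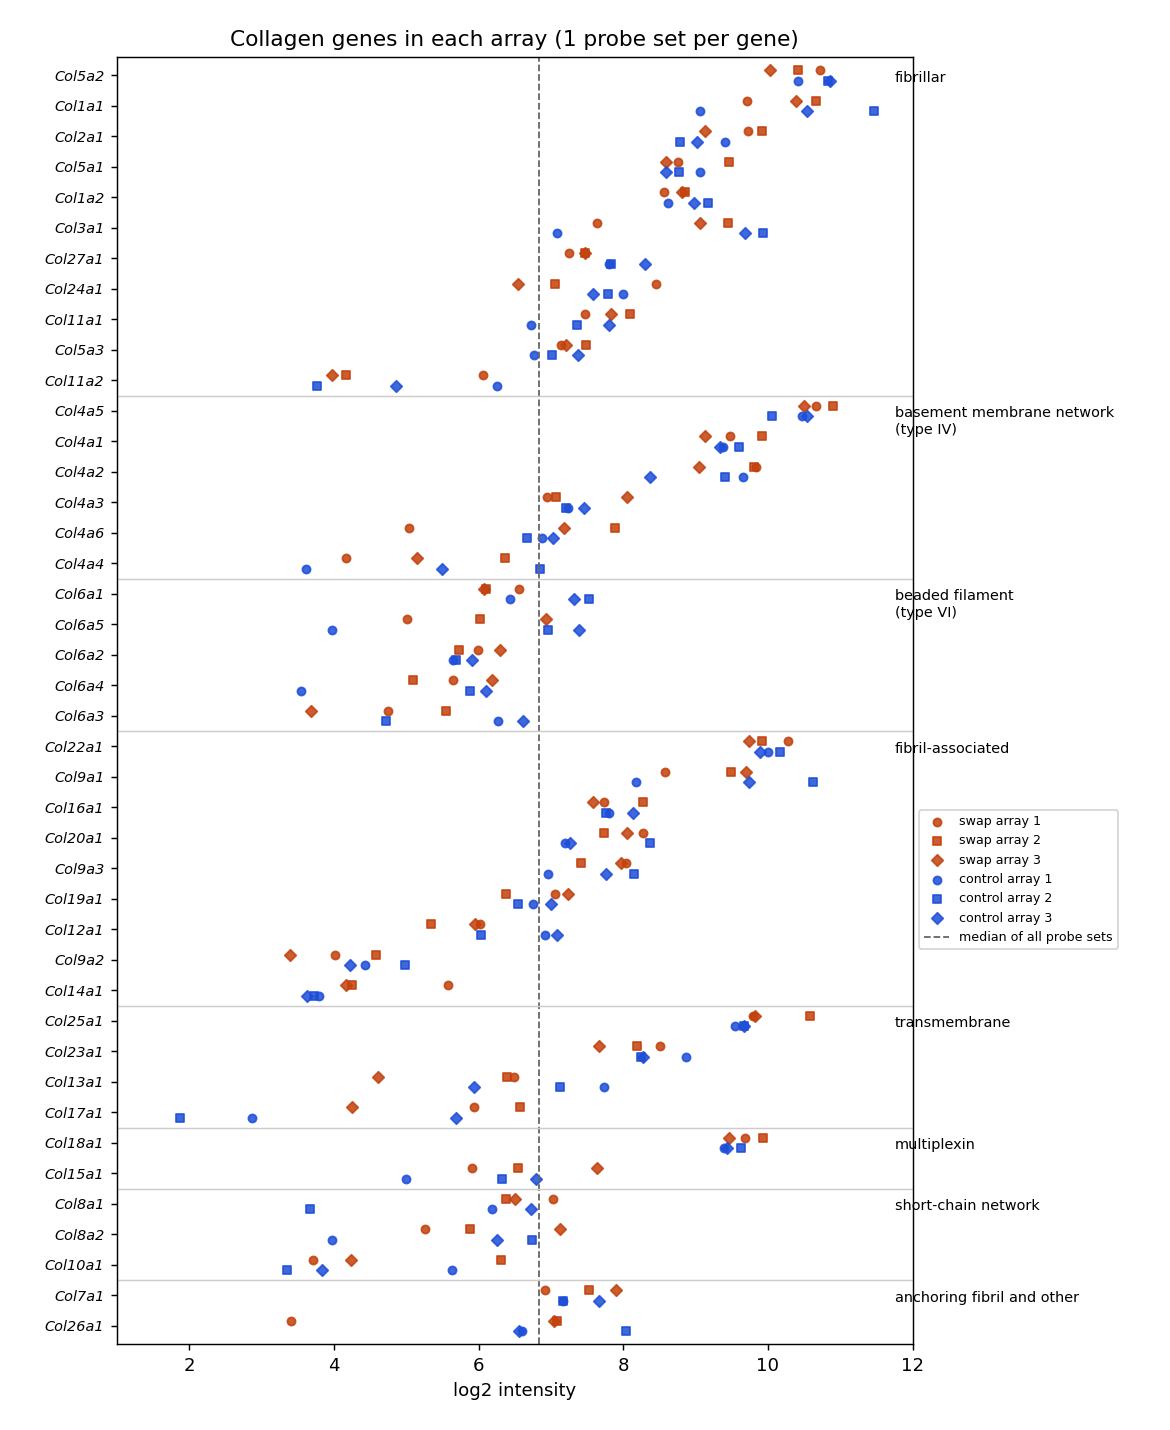
Log2 intensity (horizontal axis) of the 42 collagen genes on each of the 3 swap arrays (orange) and 3 control arrays (blue), 1 probe set per gene, grouped by family. Marker shapes give the array number and the dashed line the median of all probe sets at 6.83. Means of 10 of the 11 fibrillar genes lie right of the line, and those of all 5 beaded-filament genes and all 3 short-chain genes lie left of it.

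Among the fibrillar chains, Col3a1 had a wide spread within each genotype and Col1a1 within the control arrays. Col5a2, Col5a1 and Col1a2 had a narrower one, and in the swap arrays Col1a1 (0.95 log2 units) was close to Col5a1 (0.87). Col1a1 encodes the main chain of type I collagen, the most plentiful collagen of connective tissue. It read 9.71, 10.66 and 10.39 in swap arrays 1, 2 and 3, against 9.06, 11.47 and 10.54 in control arrays 1, 2 and 3. The replicate 1 array was the lowest in each genotype, the control arrays spanned 2.41 log2 units, and the groups overlapped. The other probe set of Col1a1, below the median level, read 6.37, 6.20 and 6.01 in the swap arrays, against 6.36, 7.70 and 6.59 in the control arrays. There the replicate 1 array was the highest of the swap arrays and the lowest of the control arrays. Col3a1, the chain of type III collagen, which accompanies type I in soft tissue, was described after its values were seen. It read 7.63, 9.45 and 9.06 in the swap arrays, against 7.08, 9.93 and 9.68 in the control arrays. Again both replicate 1 arrays were low, and the other 4 arrays lay above 9. Its other probe set had the same lowest arrays but a smaller span, at 8.45, 8.85 and 8.57 in the swap arrays, against 7.61, 9.12 and 9.20 in the control arrays.

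Col1a2, whose chain joins Col1a1 in the type I triple helix, spanned less. It read 8.57, 8.85 and 8.81 in the swap arrays, against 8.62, 9.17 and 8.98 in the control arrays. Within each genotype the order of the arrays was that of Col1a1, with a range over all 6 arrays of 0.61 instead of 2.41. The upstream bases of Col1a2 and Col3a1, one chain with a narrow and one with a wide spread, are set beside those of Col4a5, a type IV chain with a narrow spread. They come from RefSeq (GRCm38.p6, plus strand) at chr6:4505368-4505617 for Col1a2, chr1:45311288-45311537 for Col3a1 and chrX:141475169-141475369 for Col4a5, and each ends just before the first annotated base of its gene. Short motifs known from promoters were searched on both strands, and capitals mark the matches. A TATA box was read as TATAAA. A GC box was read as GGGCGG. The last motif, the CCAAT box, is spelled by its name, and no matches overlapped here.
Col1a2: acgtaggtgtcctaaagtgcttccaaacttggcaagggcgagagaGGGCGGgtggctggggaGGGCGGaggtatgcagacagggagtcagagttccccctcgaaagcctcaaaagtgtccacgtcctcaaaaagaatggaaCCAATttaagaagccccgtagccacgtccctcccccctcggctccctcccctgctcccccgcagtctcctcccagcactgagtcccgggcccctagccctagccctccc
Col3a1: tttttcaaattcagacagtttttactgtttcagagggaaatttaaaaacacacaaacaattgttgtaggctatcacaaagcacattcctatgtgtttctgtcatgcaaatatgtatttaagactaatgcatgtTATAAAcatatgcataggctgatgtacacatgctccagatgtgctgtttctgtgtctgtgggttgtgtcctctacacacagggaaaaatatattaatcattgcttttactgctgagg
Col4a5: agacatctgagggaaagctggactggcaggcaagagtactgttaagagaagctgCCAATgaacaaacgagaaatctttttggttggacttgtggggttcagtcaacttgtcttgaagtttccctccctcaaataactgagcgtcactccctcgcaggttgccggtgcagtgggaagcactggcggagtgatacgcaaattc

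The Col1a2 stretch held 1 CCAAT box and 2 GC boxes, which begin 109, 188 and 205 bases before the gene's first base, and the Col3a1 stretch held 1 TATA box 117 bases before it and none of the others. The Col4a5 stretch held 1 CCAAT box 147 bases before the gene's first base. Promoter windows were found for 33 of the 42 genes, 36 windows in all. In the 250 bases before each window's transcript start, 13.9% of collagen windows and 12.4% of all 32851 windows held the TATA box, and 36.1% of collagen windows and 33.8% of all windows held the CCAAT box. The GC box was in 58.3% of collagen windows and 32.7% of all windows. These matches are letters in a window and were not tied to any difference between arrays.

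Col5a2 and Col5a1 encode chains of type V collagen, which sets the diameter of type I fibrils. Col5a2 read 10.72, 10.42 and 10.03 in the swap arrays, against 10.42, 10.83 and 10.86 in the control arrays, and the groups overlapped. Col5a1 read 8.76, 9.47 and 8.59 in the swap arrays, against 9.07, 8.77 and 8.59 in the control arrays. Col5a2 lies next to Col3a1 on chromosome 1, and its replicate 1 array was the highest of the swap arrays and the lowest of the control arrays. Col2a1, the cartilage collagen, which is also known from notochord and early neuroepithelium, read 9.73, 9.91 and 9.13 in the swap arrays, against 9.41, 8.79 and 9.02 in the control arrays. Its swap mean was higher by 0.52 (SE 0.32), and the groups overlapped. Of the remaining fibrillar genes, Col27a1 is described with the genes whose groups did not overlap, Col24a1, Col11a1 and Col5a3 had means of 7.16 to 7.57, and Col11a2 had a mean of 4.85, below the median level. Col24a1 was highest in the replicate 1 array of each genotype. It read 8.45, 7.05 and 6.55 in the swap arrays, against 7.99, 7.78 and 7.58 in the control arrays.

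The basement membrane chains Col4a5, Col4a1 and Col4a2 were all well above the median level. Col4a1 and Col4a2 encode the chains of the common type IV network, present in nearly all basement membranes, and start head to head on chromosome 8. Col4a1 read 9.48, 9.92 and 9.13 in the swap arrays, against 9.38, 9.60 and 9.33 in the control arrays. Col4a2 read 9.83, 9.81 and 9.05 in the swap arrays, against 9.65, 9.41 and 8.37 in the control arrays. Array 3 was the lowest of each genotype for both genes, by a wider margin in Col4a2. Col4a5, an X-linked chain of a more restricted network, read 10.67, 10.90 and 10.504 in the swap arrays, against 10.47, 10.06 and 10.54 in the control arrays. Its X-linked neighbour Col4a6, which pairs with it in some basement membranes, had a mean of 6.78 and one array at 5.04 (swap array 1). Col4a3 and Col4a4, which join Col4a5 in the basement membrane of the kidney filter, had means of 7.33 and 5.27. None of these differences passed: they were 0.34 (95% interval -0.28 to 0.95) for Col4a5, 0.07 (-0.62 to 0.76) for Col4a1 and 0.42 (-0.66 to 1.50) for Col4a2.

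Among the fibril-associated chains, Col22a1 was the steadiest and Col9a1 the most variable of the bright ones. Col22a1, known from tissue junctions such as that of muscle and tendon, read 10.27, 9.91 and 9.73 in the swap arrays, against 10.01, 10.16 and 9.89 in the control arrays. Its probe set is of a kind that can bind several transcripts, so its signal may not be of Col22a1 alone, and the same holds for the probe sets of Col20a1 and Col6a2. Col9a1, a chain of type IX collagen, which coats cartilage fibrils and is also made in the developing eye and ear, read 8.58, 9.49 and 9.69 in the swap arrays, against 8.17, 10.62 and 9.73 in the control arrays. Like Col1a1, it was lowest in the replicate 1 array of each genotype and highest in control array 2. The other probe set of Col9a1, below the median level, was lowest in array 2 of each genotype. It read 5.74, 4.49 and 6.06 in the swap arrays, against 5.94, 5.24 and 7.04 in the control arrays. Col19a1, the neighbour of Col9a1 on chromosome 1, ranged over 0.86 log2 units in all, at a mean just below the median level. Of the partner chains of Col9a1 in type IX collagen, Col9a3 had a mean of 7.71 and Col9a2 one of 4.27. Col16a1 and Col20a1 had means of 7.88 and 7.81.

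Of the transmembrane and multiplexin collagens, Col25a1, Col18a1 and Col23a1 were above the median level. Col25a1 is a neuronal membrane collagen needed in mice for motor axons to innervate muscle. It read 9.80, 10.58 and 9.82 in the swap arrays, against 9.55, 9.68 and 9.66 in the control arrays. Col18a1, a basement membrane proteoglycan whose end fragment is endostatin, read 9.68, 9.93 and 9.46 in the swap arrays, against 9.39, 9.63 and 9.44 in the control arrays, and its groups overlapped. Col23a1, a membrane collagen with few known roles, had a mean of 8.29. Col13a1, a collagen of the neuromuscular junction, and Col17a1, a hemidesmosome protein of skin, had means of 6.38 and 4.53.

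The beaded-filament and short-chain collagens lay below the median level. Col6a1, a chain of the type VI filaments around cells, read 6.55, 6.10 and 6.07 in the swap arrays, against 6.44, 7.52 and 7.32 in the control arrays. Swap array 1 lay above control array 1, so the groups overlapped. The other type VI chains, Col6a2 to Col6a5, had means of 5.27 to 6.05. Col8a1, a chain of vessel and eye membranes, read 7.03, 6.38 and 6.50 in the swap arrays, against 6.19, 3.66 and 6.73 in the control arrays, Col8a2 had a mean of 5.87, and Col10a1, a collagen of mature cartilage, had a mean of 4.51. Col15a1, a multiplexin of vessel and muscle basement membranes, averaged 6.37. Of the remaining types, Col7a1, the anchoring fibril of skin, read 6.92, 7.52 and 7.90 in the swap arrays, against 7.17, 7.17 and 7.66 in the control arrays. Col26a1 read 3.40, 7.09 and 7.04 in the swap arrays, against 6.60, 8.04 and 6.55 in the control arrays, and swap array 1 stood far below the rest. Without that array the Col26a1 difference was -0.00, against -1.22 with it.

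The spread among arrays of one genotype was wide for a part of the collagen genes. Of the 23 genes at or above the median level, 9 (39.1%) spanned more than 1 log2 unit among the 3 arrays of at least 1 genotype, and of all genes at that level 21.4% did so. Below the median level 17 of 19 collagen genes and 90.6% of all genes did. At or above the median level the replicate 1 array was the lowest of both genotypes for 9 of the 23 collagen genes, and for 17.4% of all genes at that level. Of these 9 genes 6 were fibrillar, out of 10 fibrillar genes at that level. This count was chosen after the values were seen, and genes of one tissue are not independent of one another.

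Within each genotype the summed markers of branchial mesenchyme ran in the same array order as Col1a1 and Col3a1. Of the 17 markers 16 were measured, 7 of them below the median level and none listed at 0, and 9 of the 16 were lowest in the replicate 1 array of both genotypes. Their summed intensity was 3366, 5396 and 4047 in swap arrays 1, 2 and 3, against 2985, 6976 and 5018 in control arrays 1, 2 and 3. Prrx1, a homeodomain factor of limb and head mesenchyme, read 8.48, 10.23 and 9.83 in the swap arrays, against 8.16, 10.82 and 10.40 in the control arrays. Twist1, a mesenchymal factor, had the narrower range of 9.18 to 9.65 in the swap arrays and 9.27 to 9.95 in the control arrays. Fewer cells of a type and less RNA per cell cannot be told apart in such pooled samples. The Actb excess of 3′ over 5′ signal was also highest in the replicate 1 array of each genotype (2.92 in swap, 2.67 in control). That of Gapdh was highest in swap array 1 (1.93), but control array 1 (1.35) lay below control array 2 (1.41). A part of RNA quality was not tested.

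Several other marker lists differed between the replicate 1 arrays and the rest as well. The sum of the 10 markers of surface and otic ectoderm was 1804, 2981 and 3195 in the swap arrays, against 1445, 3167 and 2426 in the control arrays, with 2 markers below the median level. The sum of the 7 erythroid markers measured, of 8 listed, was 15432, 27730 and 31212 in the swap arrays, against 20688, 33153 and 30789 in the control arrays, with 4 below the median level. The sum of the 8 markers of notochord, floor plate and cartilage measured, of 10 listed, was 1576, 2385 and 1920 in the swap arrays, against 1608, 2264 and 2167 in the control arrays, in the array order of Col1a1 within each genotype and with 4 below the median level. The 10 endothelial markers, 8 of them below the median level, summed to 1130, 1402 and 1176 in the swap arrays, against 976, 1090 and 1271 in the control arrays. In all of these lists the replicate 1 array of each genotype had the lowest sum. The 10 macrophage markers summed to 2767, 5142 and 4541 in the swap arrays, against 732, 18045 and 1825 in the control arrays, with 4 below the median level. The sum of the 9 branchiomotor markers measured, of 10 listed and none below the median level, ran the other way. It was 52908, 44160 and 41950 in the swap arrays, against 48189, 40227 and 43736 in the control arrays, highest in the replicate 1 array of each genotype. Single markers did not all do so. Control array 1 was the highest control array for Gata2, Gata3 and Ebf1, and the lowest for Isl1, Nkx6-1, Tbx2 and Tbx3. The intensity of Gata2 was 6670, 2372 and 2452 in control arrays 1, 2 and 3. The 7 pericyte markers, 4 of them below the median level, summed to 3842, 5340 and 4491 in the swap arrays, against 5217, 5241 and 5121 in the control arrays. Their lowest control sum was that of array 3. The 7 markers of neural crest and glia measured, of 9 listed, summed to 16988, 15568 and 18255 in the swap arrays, against 16698, 16946 and 17308 in the control arrays. Their lowest swap sum was that of array 2. The part of these cells in the collagen values was not tested.

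**Figure D2:**
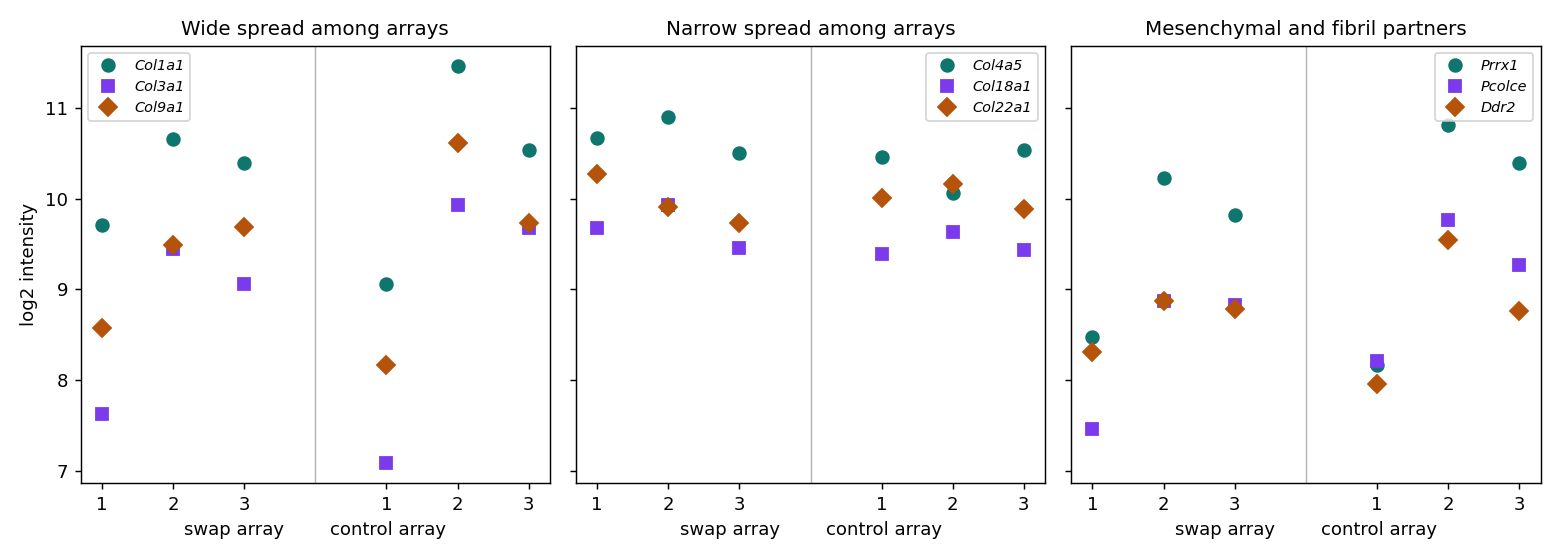
Log2 intensity (vertical axis) on swap arrays 1 to 3 (left of the line in each panel) and control arrays 1 to 3 (right of it), 1 point per array. Col1a1, Col3a1 and Col9a1 are lowest in the replicate 1 array of each genotype, as are Prrx1, the collagen processing factor Pcolce and the collagen receptor Ddr2, while Col4a5, Col18a1 and Col22a1 range over 0.84, 0.55 and 0.54 log2 units.

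Between the genotypes no collagen gene passed. limma called 0 of the 42 genes at an adjusted p under 0.05, and 0.0% of all genes. At an unadjusted p under 0.05 limma had 0 of the 42 collagen genes, and 3.63% of all genes. Swap minus control was positive for 22 collagen genes and negative for 20. The median difference was 0.06 over the collagen genes and 0.01 over all genes, on the log2 scale. It turned to -0.07 without control array 1, to -0.07 without swap array 2 and to -0.01 without both replicate 1 arrays, and reached 0.24 without swap array 1. The family medians were -0.18 for the fibrillar genes, 0.06 for type IV, -0.11 for the beaded filaments, -0.04 for the fibril-associated and 0.05 for the transmembrane genes. In the small families they were 0.48 for the 3 short-chain genes and 0.43 for the 2 multiplexins, all with positive differences, and -0.55 for the 2 genes of the remaining types. Among the 23 genes at or above the median level the differences ran from -0.58 (Col27a1) to 0.52 (Col2a1). Below it they ran from -1.22 (Col26a1) to 2.11 (Col17a1).

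limma's intervals are computed from the spread of the same arrays, so precision and spread go together by construction. The 95% interval lay within 2-fold in either direction for 10 of the 23 collagen genes at or above the median level (43.5%), and for 68.1% of all genes at that level. Below the median level it did so for 2 of 19 collagen genes, Col6a2 and Col19a1, and for 4.28% of all genes. The interval was -0.80 to 0.42 for Col1a2, -0.65 to 0.56 for Col22a1, -0.37 to 0.78 for Col18a1 and -0.65 to 0.92 for Col5a1. For the variable genes it was wide, at -1.73 to 1.53 for Col1a1, -2.43 to 2.06 for Col3a1 and -1.96 to 1.45 for Col9a1. Their differences of -0.10, -0.18 and -0.25 turned to 0.46, 0.33 and 0.30 without control array 2, and to 0.17, 0.36 and 0.08 without swap array 1, and Col3a1 was at 0.21 without control array 3. Small differences of other genes turned as well, Col22a1 (-0.05) without control array 2 or swap array 3, Col4a1 (0.07) and Col5a1 (0.13) without swap array 2, and Col7a1 (0.11) without swap array 3.

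**Figure D3:**
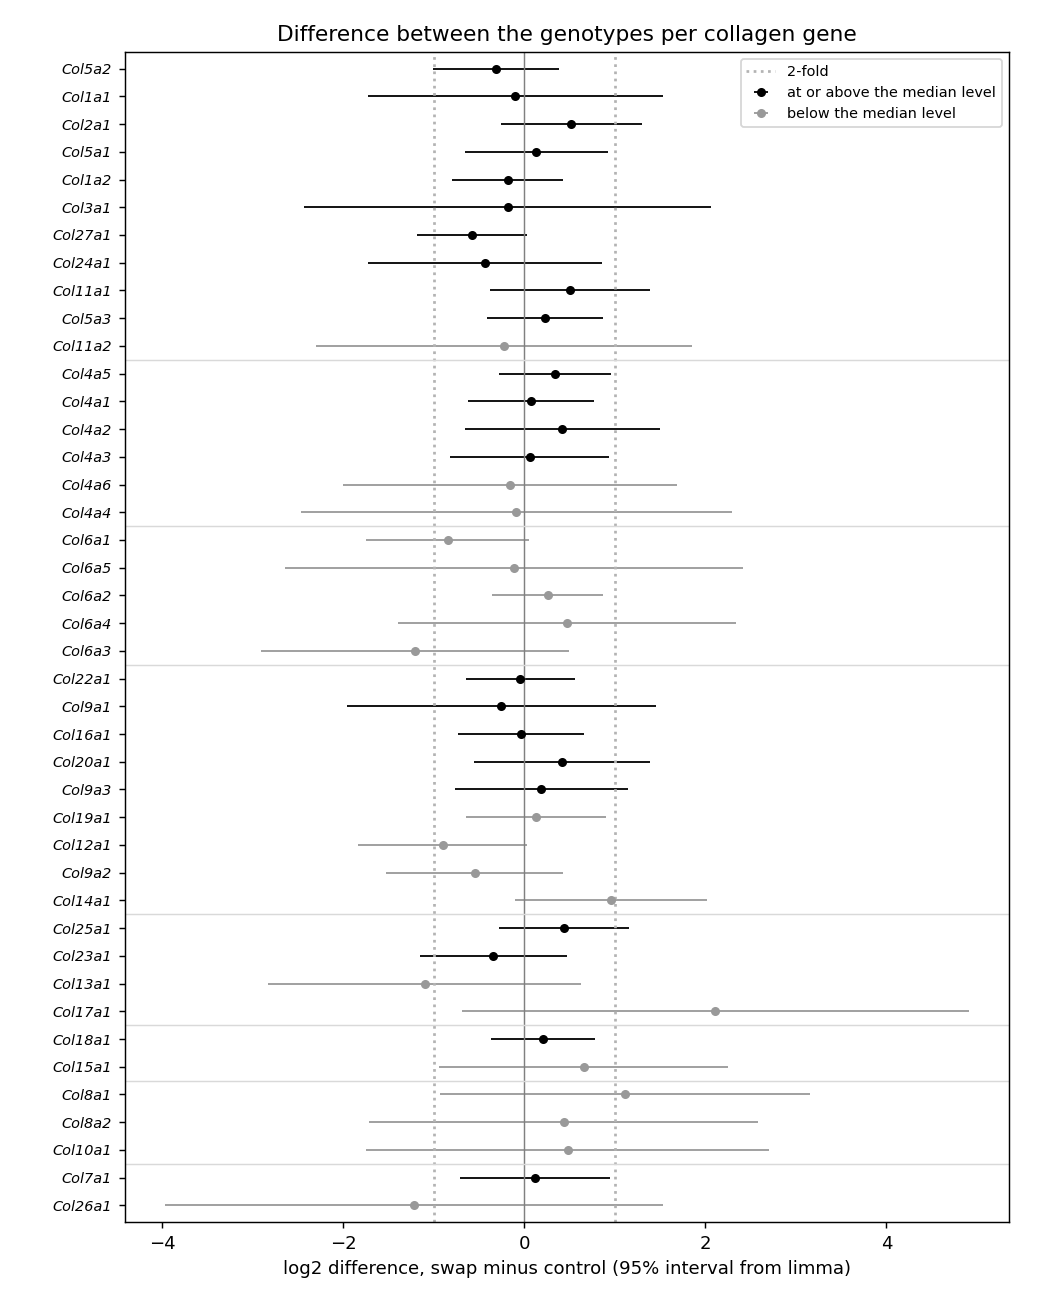
Log2 difference, swap minus control (horizontal axis), with the 95% interval from limma for each of the 42 collagen genes in the order of the plot of levels. Black genes lie at or above the median level, grey genes below it, and dotted lines mark a 2-fold difference. The interval of every gene includes 0, and those of Col1a1, Col3a1 and Col9a1 are among the widest of the black ones.

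The arrays of the genotypes did not overlap in 4 of the 42 genes (9.52%), and in 8.85% of all genes. Higher in all swap arrays were Col25a1 and Col14a1 (4.3% of all genes), and lower were Col27a1 and Col12a1 (4.55% of all genes). Col25a1, whose arrays are given above, differed by 0.44 (SE 0.29, limma's adjusted p = 1.00), and its 3 control arrays lay within 0.13 log2 units of each other. Without swap array 2, the highest, the difference was 0.18. Its other probe set, far below the median level, differed by -1.72. Col27a1, a fibrillar collagen of cartilage growth, read 7.24, 7.48 and 7.47 in the swap arrays, against 7.81, 7.83 and 8.30 in the control arrays. The difference was -0.58 (SE 0.25, limma's adjusted p = 1.00), and the other probe set, of nearly the same mean, was at 0.22.

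Col12a1, a chain that links fibrils to their surroundings, read 6.02, 5.34 and 5.95 in the swap arrays, against 6.91, 6.04 and 7.08 in the control arrays. Its difference was -0.91 (SE 0.38, limma's adjusted p = 1.00). Col14a1, its close relative, read 5.58, 4.25 and 4.17 in the swap arrays, against 3.79, 3.72 and 3.63 in the control arrays, both far below the median level, and they differed by 0.95 (SE 0.43, limma's adjusted p = 1.00), or by 0.50 without swap array 1. For each of these 4 genes the two-sided exact permutation p was 0.1, the smallest that 3 against 3 arrays can give. Of the other genes with the smallest unadjusted p, Col6a1 differed by -0.85 (SE 0.36) and Col17a1 by 2.11 (SE 1.13, and 3.22 without control array 3). Col17a1 read 5.93, 6.58 and 4.25 in the swap arrays, against 2.87, 1.87 and 5.69 in the control arrays, and its groups overlapped.

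Several probe sets of one gene often pointed in different directions. Of the 27 genes with several probe sets, 11 had all of them on the same side of 0, and 6 of 11 did where several probe sets reached the median level. Of all 82 probe sets, limma called 0 at an adjusted p under 0.05, and 5 had an unadjusted p under 0.05, 3 higher and 2 lower in the swap arrays (4.57% of all probe sets). The arrays did not overlap in 9 of the 82, 5 higher and 4 lower in the swap group, and in 8.83% of all probe sets. All 5 with a low p lay below the median level, none was the one that represents its gene, and they are named here after their values were seen. For Col8a1 they gave 1.70 and -1.90, for Col12a1 2.61, against -0.91 at the representing probe set, and for Col23a1 1.50, against -0.34. For Col1a2 the third probe set read 5.94, 6.09 and 5.66 in the swap arrays, against 6.82, 7.04 and 7.41 in the control arrays. It differed by -1.19 (SE 0.26, limma's adjusted p = 0.766). The brighter probe sets of Col1a2 were at -0.19 and -0.41, in the same direction.

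**Figure D4:**
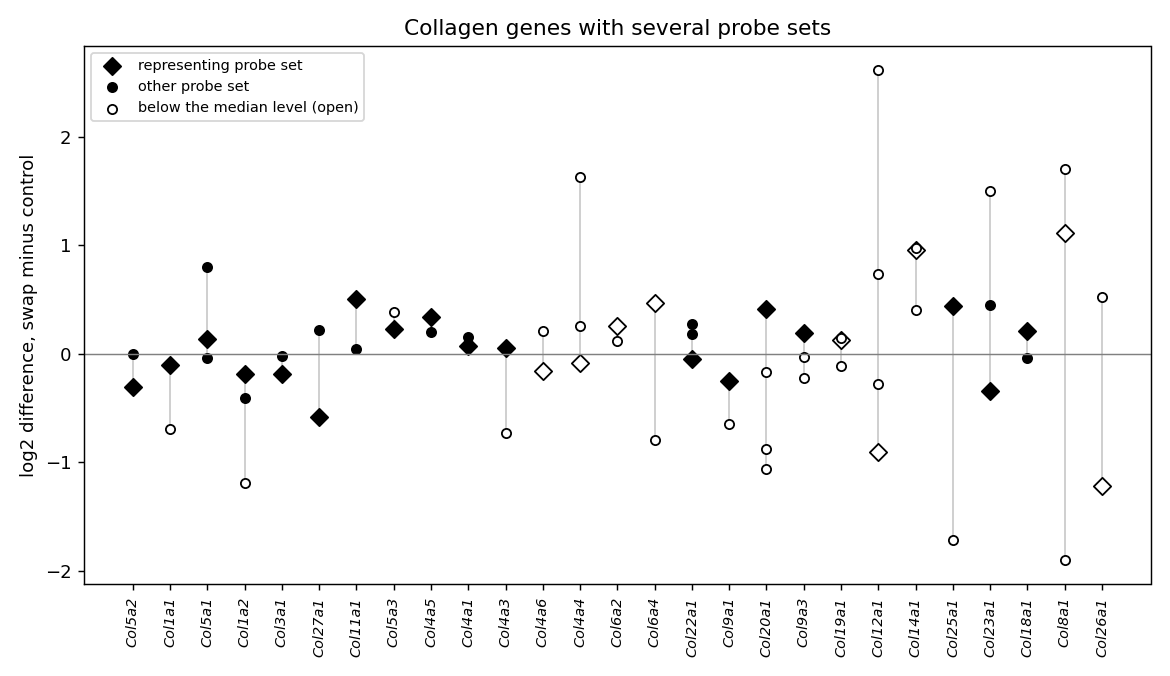
Log2 difference, swap minus control (vertical axis), of every probe set of the 27 collagen genes with several probe sets. Diamonds are the probe sets that represent the genes, circles the others, and open symbols lie below the median level. Bright probe sets lie between -0.58 and 0.80, and open ones reach 2.61 and -1.90.

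The enzymes, receptors and partners of collagen gave 0 genes past limma's test as well. Of 22 genes measured for folding, modification and export, of 23 listed, 8 had a positive and 14 a negative difference, with a median difference of -0.09 and 1 at an unadjusted p under 0.05 (3.63% of all genes). P4hb, a subunit of the prolyl hydroxylase that stabilises the helix, read 13.59, 13.58 and 13.42 in the swap arrays, against 13.66, 13.50 and 13.55 in the control arrays. Sec23a, a coat protein of the vesicles that leave the endoplasmic reticulum, lay between 12.25 and 12.65 on every array. Mia2, a cargo receptor at the same exit sites, had the smallest p, at -1.11 (SE 0.38) and a mean under the median level. Sec24d, another coat protein, differed by -0.50 (SE 0.25). These 2 of the 22 genes were lower in all 3 swap arrays, as were 4.55% of all genes.

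Of 11 genes measured for propeptide cleavage and cross-linking, of 14 listed, 5 were higher and 6 lower, with a median of -0.11. limma had 1 of them at an unadjusted p under 0.05 (3.63% of all genes). Pxdn, the peroxidase that cross-links type IV collagen, was even across arrays, at 11.06 to 11.23 in the swap arrays and 11.12 to 11.35 in the control arrays. Pcolce, which speeds the cleavage of fibrillar procollagens, read 7.46, 8.87 and 8.82 in the swap arrays, against 8.21, 9.76 and 9.27 in the control arrays, in the array order of Col1a1 within each genotype. Loxl4, a lysyl oxidase, and Pcolce2, a relative of Pcolce, had the smallest p, with differences of -1.49 (SE 0.54) and -1.55 (SE 0.63), both below the median level.

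Of 9 collagen receptors measured, of 10 listed, 5 were higher and 4 lower, with a median of 0.04. limma had 1 of them at an unadjusted p under 0.05 (3.63% of all genes). Ddr1, a receptor kinase for collagens that is known from epithelium and brain, read 14.16, 13.84 and 13.81 in the swap arrays, against 14.02, 13.68 and 13.82 in the control arrays. The probe set is of a kind that can bind several transcripts, so the signal may not be of Ddr1 alone. Ddr2, its mesenchymal relative, read 8.31, 8.87 and 8.78 in the swap arrays, against 7.96, 9.55 and 8.76 in the control arrays, lowest in both replicate 1 arrays. The smallest p belonged to the platelet receptor Gp6 (1.04, SE 0.36), at a mean of 2.77, and to the integrin chain Itga10 (0.37, SE 0.35).

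Of 10 genes of collagen breakdown measured, of 11 listed, 3 were higher and 7 lower, with a median of -0.41. limma had 0 of them at an unadjusted p under 0.05 (3.63% of all genes). Their brightest probe sets were those of the protease inhibitors Timp2, at 0.09 (SE 0.33), and Timp3, at -0.81 (SE 0.43), and the gelatinase Mmp9 had the smallest p at -1.93 (SE 0.92), below the median level. Of 11 small proteoglycans and fibril partners, 6 were higher and 5 lower, with a median of 0.03. limma had 1 of them at an unadjusted p under 0.05 (3.63% of all genes). Sparc, a collagen-binding matrix protein, read 11.47, 11.48 and 11.31 in the swap arrays, against 11.52, 11.70 and 11.50 in the control arrays, and Fn1, fibronectin, differed by 0.50 (SE 0.26). The smallest p belonged to the proteoglycan Kera (1.62, SE 0.45, limma's adjusted p = 0.930) and its relative Aspn (-1.28, SE 0.56), both below the median level.

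Of 14 basement membrane partners measured, of 15 listed, 8 were higher and 6 lower, with a median of 0.13 and 2 at an unadjusted p under 0.05 (3.63% of all genes). These were the laminin chains Lama5 and Lama3. Lama5 had a mean of 6.23, below the median level, and its probe set is of a kind that can bind several transcripts. It read 6.95, 6.86 and 6.99 in the swap arrays, against 4.70, 6.15 and 5.75 in the control arrays. It differed by 1.40 (SE 0.41, limma's adjusted p = 1.00). Lama3 differed by 0.82 (SE 0.31, limma's adjusted p = 1.00), and Lamb3, another laminin chain, by 0.70 (SE 0.36). In these 3 of the 14 genes all swap arrays lay above all control arrays, as in 4.3% of all genes. Agrn, the heparan sulfate proteoglycan agrin, lay between 12.60 and 12.85 on every array, and Nid1, which bridges laminin and type IV collagen, between 9.48 and 10.01.

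The markers of other cell types had 0 genes past limma's test. The median differences were -0.14 for branchial mesenchyme, -0.19 for pericytes, 0.18 for endothelium, -0.40 for notochord, floor plate and cartilage (8 of 10 measured), 0.09 for neural crest and glia (7 of 9), 0.28 for surface and otic ectoderm, 0.40 for macrophages, -0.27 for erythroid cells and -0.10 for branchiomotor neurons. Of the 9 branchiomotor markers Gata2 (-0.79, SE 0.46) and Gata3 (-0.42, SE 0.25) were lower in all 3 swap arrays, as were 4.55% of all genes. Gata2 read 10.83, 11.10 and 10.88 in the swap arrays, against 12.70, 11.21 and 11.26 in the control arrays, and control array 1 stood apart. In the mesenchymal list Osr2 (2.27, SE 0.48, limma's adjusted p = 0.718) and Hand2 (-1.30, SE 0.31, limma's adjusted p = 0.818) had the smallest p, both below the median level. Pdgfrb, a receptor of pericytes and mesenchyme, differed by -0.75 (SE 0.34) and was lower in all 3 swap arrays, as were 4.55% of all genes. Notch3, also of pericytes and of neural progenitors, differed by -0.19 (SE 0.22). Of the vessel markers, Egfl7 and Flt1 differed by -0.17 and 0.13 (SE 0.23 and 0.26). The cartilage link protein Hapln1 read 9.19, 10.32 and 9.54 in the swap arrays, against 8.71, 9.37 and 9.52 in the control arrays, and the floor plate signal Shh differed by -0.39 (SE 0.32).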

How the data were processed

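Amplified RNA of the sorted cells was measured on 6 Affymetrix mouse arrays, and the series design calls the 3 per genotype independent. The table deposited by the authors gives 1 linear intensity per array for 45101 probe sets. Per the submitters' processing notes the tool was affy; no version, background or summary method is stated. In the deposited values the 2% trimmed mean was 500 for each array, so scaling had been done. With 64 array control probe sets left out, log2 was taken with no offset and each of 45037 probe sets was fitted with limma 3.58.1 (lmFit, eBayes) in R 4.3.3, swap minus control, two-sided, Benjamini-Hochberg over all probe sets, threshold 0.05. The median SE was 0.27 for genes at or above the median level and 0.71 for the others, and the few arrays limit precision. The code was tested on simulated data.

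Gene names are those of the platform's table (34945 probe sets with 1 symbol), and all 42 collagen genes matched RefSeq. Collagen genes given with every array were the 12 highest means, the highest of each family, the 5 smallest p and the separated genes. Col3a1, Col24a1 and Col26a1 were added after their values were seen, as were the array values of other probe sets. From each related list the members past the threshold, or else the 2 with the smallest p, and the 2 highest means were taken; further members shown beside a collagen result were picked after their values were seen. The members and lists were chosen with earlier results of these data known. Alternatives were a block for the replicate number, a median-level filter, quantile normalization, median centring, an offset of 64, a trended robust prior, array weights, other ways to join probe sets, and leaving arrays out. Labels give no batch. The Hox protein made in the swap group is not reported here.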

Additional observations from a re-analysis of the deposited data

How the results depend on the processing

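limma called 0 probe sets or genes in the main fit and under all 15 alternatives over the table (smallest adjusted p 0.241), and 0 collagen genes under all 16 alternatives (smallest adjusted p 0.66, with 0 to 3 collagen genes at an unadjusted p under 0.05). With the replicate number as a block limma again called 0. At an unadjusted p under 0.05 it then had 2 of the 42 collagen genes, and 2323 of all 45037 probe sets. Over all settings that count for the whole table ran from 801 (of 18193 genes) to 2375 (of 45037 probe sets). The titles share replicate numbers, but the deviations of same-numbered arrays from their group means correlated at 0.07, 0.02 and 0.06 over all probe sets, and at 0.23, 0.03 and 0.22 at or above the median level. Not every pair passed 0.1 in either, so the main fit did not pair the arrays by number. Over all probe sets each swap array correlated best with the control array of its own number. At or above the median level swap array 2 did not (0.03, against 0.04 with control array 1). In each genotype the median intensity rose from array 1 through array 2 to array 3, and the Actb excess of 3′ over 5′ signal fell. Swap and control medians were 118.2 and 118.3 in array 1 and 138.6 and 138.7 in array 3, and lay further apart in array 2. The Gapdh excess did not share an array order between the genotypes. Whether same-numbered arrays were handled together was not tested. The median collagen difference ran from -0.07 to 0.24 with 1 array left out. Of 330 values of 21 collagen genes 314 kept their direction, and 16 turned in differences that had not passed. With the mean of all probe sets of a gene Col12a1 was at 0.54, Col22a1 at 0.14 and Col25a1 at -0.64, and with the probe set of the highest median Col27a1 was at 0.22. Those values use other probe sets of the same genes, the means along with the one that represents the gene. With 1 array left out the ranges were -0.75 to 0.46 for Col1a1, -1.09 to 0.36 for Col3a1, -0.92 to 0.30 for Col9a1, -0.20 to 0.075 for Col22a1, -0.13 to 0.26 for Col4a1, -0.13 to 0.31 for Col5a1 and -0.11 to 0.38 for Col7a1. The cause was not tested. Collagen genes below the median level had a median SE of 0.75, against 0.32 at or above it.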
